A study of Drosophila melanogaster with 73 samples.

Results

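The second day at 18°C was set against the first 12 h after a shift from 25°C, in abdominal fat bodies of female flies. The 12 libraries concerned, of 73 in the series, were taken by their labels alone: 6 of day 2 at 18°C (ZT02 to ZT12 every 2 h, 26 to 36 h after the shift) and 6 of day 1 at 18°C at the same zeitgeber times (2 to 12 h after the shift). Zeitgeber time (ZT) counts hours after lights on, and each day 2 library was paired with the day 1 library of its ZT. Both groups were Iso31 flies, an isogenic w1118 strain without a transgene, aged for 3 days with males, entrained for 3 days in 12:12 light-dark cycles at 25°C and shifted at 7 days of age, so that day 2 flies were also 1 day older. The series asked how the circadian transcriptome of the fat body responds when flies meet a lower temperature.

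Each library was a pool of hand-dissected fat tissue, with ovary, gut and tubules removed and the epidermis left attached, and each time point was sampled once. The 6 libraries of a day are therefore different hours, and their SD includes any change over the day. After ZT00 of day 2 no library at 25°C was at hand for days 1 and 2, so time since the shift, age and day of collection cannot be told apart. Levels are in TPM, a transcript abundance corrected for length and scaled so that every library sums to the same total. Of 23932 genes in the table, 7403 had a median above 5 TPM in either group and were tested.

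The fat body is the fly's counterpart of liver and adipose tissue: it stores lipid and glycogen, makes yolk proteins, secretes antimicrobial peptides and signals the nutritional state to other organs. A fall in temperature slows metabolism in an ectotherm such as a fly. Ribosome production, which takes place in the nucleolus, and the folding of new proteins are among the processes that follow growth signals in this tissue.

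The fat body was well represented in every library. The 12 fat body markers summed to between 33698 and 49136 TPM on day 2 and between 40637 and 49894 TPM on day 1. Transcripts of the female germline, an organ that dissection was meant to remove, were also present, at higher sums on day 2 in most pairs. Their 19 markers summed to 860, 498, 226, 1750, 173 and 45.1 TPM at ZT02, ZT04, ZT06, ZT08, ZT10 and ZT12 of day 2, against 100.5, 246, 59.9, 169, 108 and 54.6 TPM at the same times of day 1. The sum was higher on day 2 in 5 of 6 pairs, with an exact two-sided sign-flip permutation p of 0.0625 over the pairs. Eggshell genes, made by follicle cells, ranged from 6.38 to 9840 TPM on day 2 and from 7.15 to 1835 TPM on day 1. Muscle markers summed to between 6159 and 8697 TPM on day 2 and between 7414 and 9845 TPM on day 1, and gut markers reached 297 TPM on day 2 and 1682 TPM at ZT04 of day 1. In bulk tissue, fewer cells of a type and less RNA per cell cannot be told apart.

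No single gene passed the adjusted test, and more genes lay above 0 than below it. With limma on log2(TPM + 1), paired by ZT, 0 of 7403 genes (0%) had an adjusted p under 0.05, and the smallest adjusted p was 0.0507. At an unadjusted p under 0.05, 1788 genes were higher on day 2 (24.2%) and 300 were lower (4.05%). In all 6 pairs, 1038 genes were higher on day 2 (14%) and 156 lower (2.11%), and the ranges of the 2 days did not overlap for 295 genes higher on day 2 (3.98%) and 20 genes lower (0.270%). The tilt towards higher values depended on the scaling: the median difference over all genes was 0.18 on the log2 scale, and after rescaling the libraries by median-of-ratios factors it was −0.01, with 877 genes higher and 930 lower at an unadjusted p under 0.05. Differences are read below against that median of 0.18.

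The count of calls turned on which pairs entered. Without the ZT12 pair, the only one with no germline excess on day 2, 786 genes had an adjusted p under 0.05 (728 higher, 58 lower), and without the ZT08 pair 2 did. With libraries not paired by ZT, 271 genes did (240 higher, 31 lower). With the 3 pairs whose day 2 libraries held the most germline RNA left out (ZT02, ZT04 and ZT08, a choice made after seeing the data), 394 genes were higher (5.41%) and 351 lower (4.82%) at an unadjusted p under 0.05, and 4 passed the adjusted threshold. The pairs kept were not free of germline excess. Their sums were 226 TPM on day 2 against 59.9 TPM on day 1 at ZT06, 173 against 108 TPM at ZT10 and 45.1 against 54.6 TPM at ZT12. With the summed germline marker score as a covariate, also chosen after seeing the data, 337 genes were higher (4.55%) and 381 lower (5.15%) at an unadjusted p under 0.05, and 7 passed the adjusted threshold, all of them lower.

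The genes with the smallest p among those higher in all 6 pairs were msd1, nudC, CG3817, CG14270, Lsm10, dUTPase, SmB and a gene that overlaps Polr1C on the opposite strand. They include a spindle protein, parts of RNA-processing complexes and an enzyme of nucleotide metabolism. The gene msd1 encodes a subunit of augmin, the complex that seeds microtubules within the spindle, and lies on chromosome 3L from 1331744 to 1332326 in the BDGP6.54 annotation. It was at 22.5, 15.3, 17.6, 12.2, 12.3 and 12.2 TPM at ZT02 to ZT12 of day 2, against 3.02, 1.57, 2.10, 6.17, 2.08 and 1.39 TPM at the same times of day 1. All 6 libraries of day 2 lay above all 6 of day 1, and msd1 averaged 15.3 ± 4.12 TPM on day 2 and 2.72 ± 1.78 TPM on day 1 (SD, n = 6 each). Its day 1 median lay below the filter of 5 TPM, so msd1 entered the test only through its day 2 level. Its separation is to be read with that limit. The difference was 2.21 on the log2 scale (SE 0.25, limma adjusted p = 0.0507), and it was 2.39 in the pairs ZT06, ZT10 and ZT12 alone. Between the 2 windows msd1 stood at 1.97, 4.79, 8.75 and 14.2 TPM at 14, 16, 20 and 22 h after the shift and at 25.1 TPM at 24 h. In the 5 libraries of days 1-2 at 25°C it was between 1.65 and 4.82 TPM, and the median at ZT02 to ZT12 of days 4-5 at 18°C was 6.04 TPM. The gene overlaps msd5 on the opposite strand, and in these non-stranded libraries reads from the overlap cannot be told apart.

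**Figure D1:**
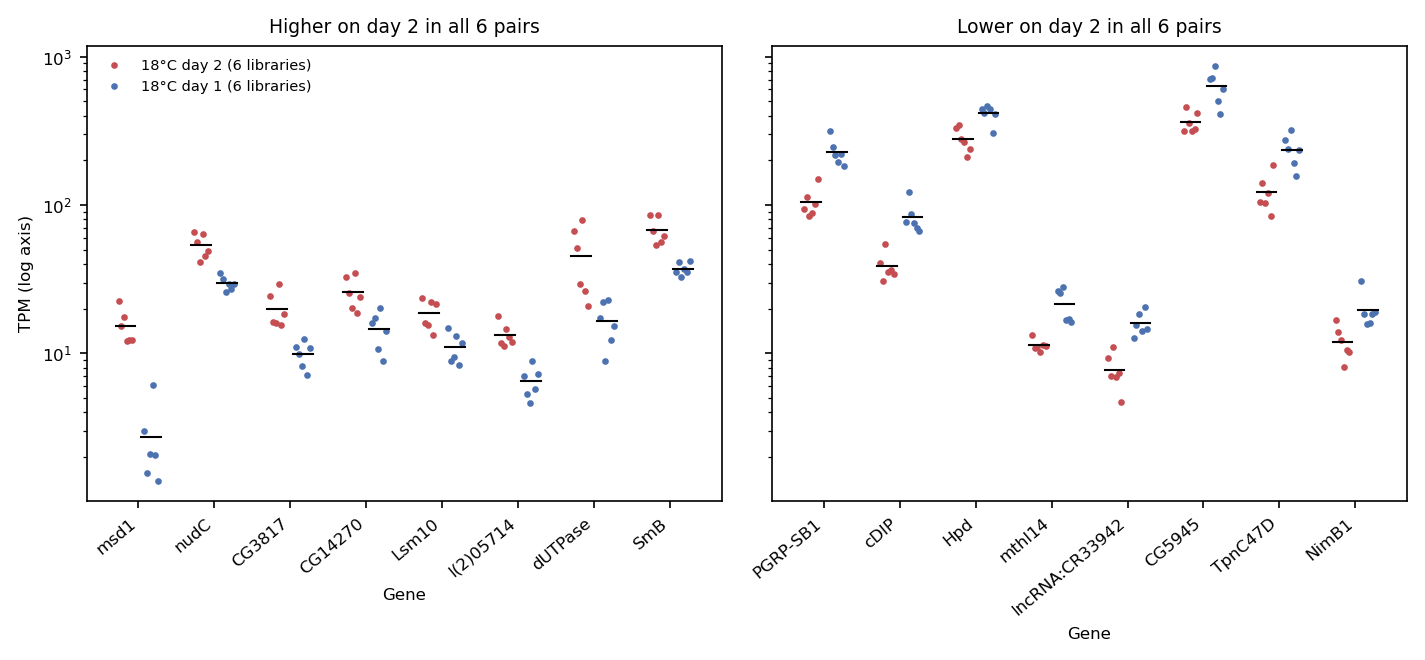
TPM (log axis) of the 16 genes with the smallest p among genes of 1 direction in all 6 pairs, 8 higher on day 2 (left panel) and 8 lower (right panel). Each point is a library, red for 18°C day 2 and blue for 18°C day 1, and the bar is the mean of 6. The groups of msd1 are separated by a gap, whereas those of dUTPase and CG14270 overlap.

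The other genes of this direction showed smaller and tighter differences. The gene nudC, which encodes a partner of the dynein motor, was at 65.6, 56.4, 41.5, 63.4, 45.2 and 49.2 TPM on day 2, against 34.9, 31.5, 25.9, 29.6, 27.4 and 29.4 TPM on day 1. The lowest day 2 library stood above the highest day 1 library, and the difference was 0.81 (SE 0.09, limma adjusted p = 0.0507). SmB, a core protein of spliceosomal snRNPs, averaged 68.3 ± 14.2 TPM on day 2 and 37.3 ± 3.63 TPM on day 1, again without overlap. Lsm10 belongs to the U7 snRNP, which processes histone mRNA, and averaged 18.7 ± 4.24 TPM on day 2 and 11.1 ± 2.6 TPM on day 1. Its locus overlaps Prosbeta5 on the opposite strand, so its reads are uncertain. For dUTPase, which keeps uracil out of DNA, the values were 66.7, 51.4, 29.4, 79.5, 26.2 and 20.8 TPM on day 2 and 17.3, 22.4, 8.86, 23.0, 12.3 and 15.4 TPM on day 1. Its 3 highest libraries were those of day 2 with the most germline RNA, and the difference was 1.31 in all pairs and 1.02 in the pairs ZT06, ZT10 and ZT12. CG3817, CG14270 and the gene beside Polr1C differed by between 0.80 and 0.95 on the log2 scale, and CG3817 overlaps VhaPPA1-2 on the opposite strand.

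The genes with the smallest p among those lower in all 6 pairs were led by PGRP-SB1, cDIP and Hpd. PGRP-SB1, a peptidoglycan-degrading recognition protein, was at 93.3, 113, 84.3, 88.3, 101 and 149.6 TPM on day 2, against 314, 245, 217, 194, 221 and 182 TPM on day 1. The highest day 2 library lay below the lowest day 1 library, with a difference of −1.12 (SE 0.17, limma adjusted p = 0.0507). It stood at 136 TPM at the time of the shift and at 638 TPM at 14 h, and it was between 72.9 and 133 TPM in the 5 libraries of days 1-2 at 25°C. At ZT02 to ZT12 of days 4-5 it ranged from 88.2 to 370.4 TPM at 18°C and from 18.4 to 1997 TPM at 25°C, spans that hold every value of both windows at 25°C and all but the lowest of day 2 at 18°C. NimB1, of the Nimrod family of phagocytosis-related proteins, averaged 11.9 ± 3.03 TPM on day 2 and 19.8 ± 5.56 TPM on day 1. Hpd, the dioxygenase of tyrosine breakdown, averaged 278 ± 51.5 TPM on day 2 and 415 ± 56.5 TPM on day 1, a difference of −0.58 (SE 0.09). The receptor gene mthl14, of the methuselah-like family, was between 10.3 and 13.3 TPM on day 2 and between 16.2 and 28.1 TPM on day 1. The gene cDIP was between 30.8 and 54.9 TPM on day 2 and between 67.2 and 123 TPM on day 1. CG5945 and the long noncoding RNA CR33942 were also lower in all 6 pairs, with differences of −0.77 and −0.98. TpnC47D, a troponin C of muscle, averaged 123 ± 36 TPM on day 2 and 235 ± 57.2 TPM on day 1, beside muscle markers that were lower on day 2 in 5 of 6 pairs. The part of muscle RNA in the TpnC47D value was not tested.

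Genes for building ribosomes leaned higher on day 2 as a group. None of the lists below held a gene with an adjusted p under 0.05, and their counts at an unadjusted p under 0.05 are read against the 24.2% of all genes that were higher and the 4.05% that were lower. Of 38 nucleolar ribosome biogenesis genes tested, 35 were higher on day 2 at that level and 0 lower. Their median difference was 0.68, against 0.18 over all genes, and 15 of 38 had groups that did not overlap, against 3.98% of all genes. NHP2, a core protein of the snoRNPs that modify ribosomal RNA, was at 123, 91.7, 80.2, 132, 81.2 and 76.6 TPM on day 2, against 56.5, 58.2, 41.1, 53.6, 34.7 and 62.2 TPM on day 1. No library of day 2 fell inside the day 1 range, and the difference was 0.91 (SE 0.14, limma adjusted p = 0.0507). Surf6 and Nnp-1, both factors of ribosomal RNA processing, differed by 1.11 and 1.00, and both were highest at ZT08 of day 2. With rescaled libraries the median over the list was 0.50, with 37 of 38 genes above 0.

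The hours around both windows put this difference in context. Relative to its own mean over the day 1 window, the list's median stood at 0.79 (log2) at the time of the shift, between −0.27 and 0.18 from 2 to 12 h, between 0.01 and 0.31 from 14 to 22 h, at 1.32 at 24 h and between 0.27 and 1.30 from 26 to 36 h. At 25°C it lay between 0.46 and 0.81 from 0 to 18 h and at −0.00 at 24 h, and on days 4-5 at ZT02 to ZT12 its median over 14 libraries was 0.41 at 18°C and 0.36 at 25°C. Germline markers at 18°C summed to 264 TPM at the shift, to between 85.8 and 183 TPM from 14 to 22 h and to 1155 TPM at 24 h. At 25°C they summed to 414, 283, 998, 265 and 153 TPM at 0, 6, 12, 18 and 24 h. The list's medians in those libraries were 0.66, 0.46, 0.81, 0.54 and −0.00, highest and lowest where the germline sum was highest and lowest. Within the day 1 window the list's median stood at 0.16, −0.05, −0.27, 0.14, −0.14 and 0.18 at ZT02 to ZT12. The germline sums at those times were 100.5, 246, 59.9, 169, 108 and 54.6 TPM. The part of germline RNA in the list's difference was not tested. By pair, the list's median difference was 0.83, 0.59, 0.59, 1.27, 0.60 and 0.12 at ZT02 to ZT12, largest at ZT08, where germline markers were at 1750 TPM against 169 TPM, and smallest at ZT12, where they were at 45.1 TPM against 54.6 TPM. In the pairs ZT06, ZT10 and ZT12 the median was 0.45, against 0.04 over all genes, and 21 of 38 genes were higher at an unadjusted p under 0.05, against 5.41% of all genes. With the germline covariate the median was 0.30, against −0.0037 over all genes, and 8 of 38 genes were higher, against 4.55% of all genes.

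**Figure D2:**
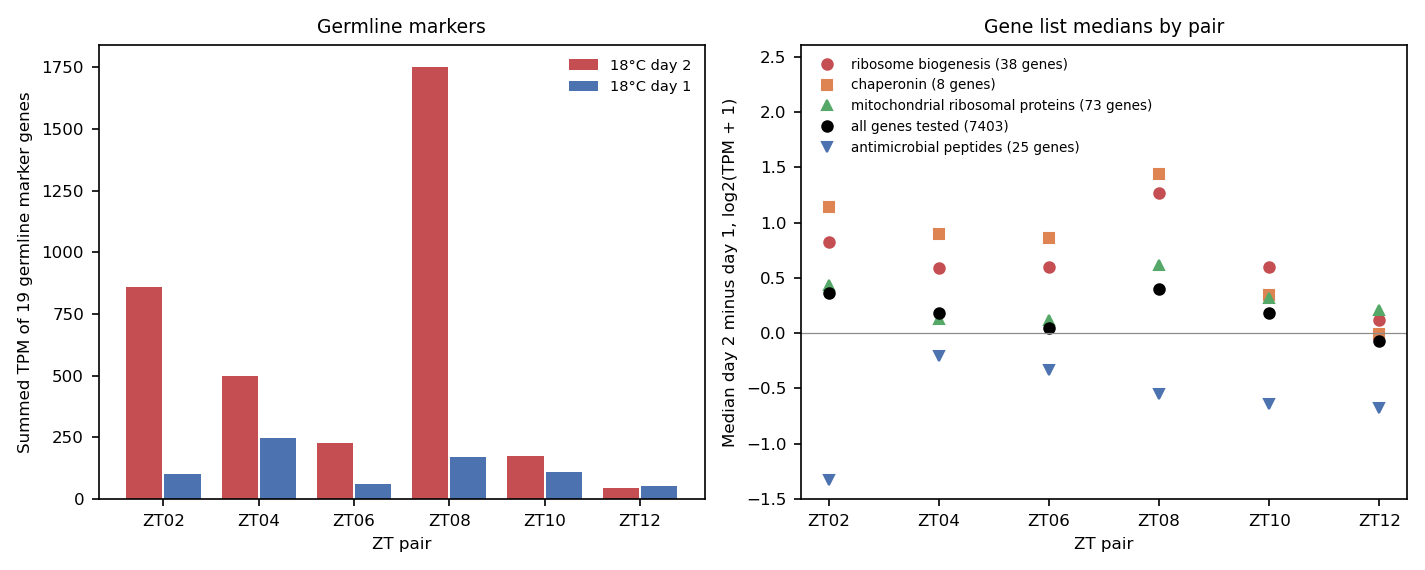
Left, summed TPM of 19 germline marker genes in each library of 18°C day 2 (red) and 18°C day 1 (blue). Right, median day 2 minus day 1 difference on the log2(TPM + 1) scale of 4 gene lists and of all 7403 genes tested in each ZT pair. The ribosome biogenesis median runs from 0.12 at ZT12 to 1.27 at ZT08, and the antimicrobial peptide median is below 0 in all 6 pairs.

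Other genes of growth and protein folding leaned the same way in all 6 pairs together, with smaller medians in the 3 pairs and with the germline covariate. All 8 subunits of the cytosolic chaperonin, which folds actin and tubulin, were higher at an unadjusted p under 0.05, with a median of 0.77. CCT8 was at 149, 114, 94.7, 185, 92.0 and 78.8 TPM on day 2, against 56.6, 59.6, 50.3, 62.7, 69.2 and 69.4 TPM on day 1, without overlap, and CCT5 and CCT3 differed by 0.77 and 0.80. The chaperonin median by pair was 1.14, 0.90, 0.86, 1.44, 0.35 and −0.01 at ZT02 to ZT12, and in the 3 pairs with the least germline RNA on day 2 it was 0.39, with 2 of 8 genes higher at an unadjusted p under 0.05. With the germline covariate it was 0.21, with 0 of 8 genes higher. Of 73 mitochondrial ribosomal protein genes, 44 were higher at that level and 0 lower, 38 were higher in all 6 pairs, against 14% of all genes, and the median was 0.31. In the 3 pairs 18 of 73 were higher and 1 lower, with a median of 0.22, and with the germline covariate 9 were higher and 0 lower, with a median of 0.16. The gene mRpL2 averaged 37.4 ± 8.17 TPM on day 2 and 21.0 ± 4.02 TPM on day 1, and the differences of mRpS25 and mRpL19 were 0.62 and 0.59. By pair this list's median was 0.43, 0.13, 0.12, 0.62, 0.32 and 0.21 at ZT02 to ZT12, above 0 also at ZT12. Of 28 aminoacyl-tRNA synthetases tested of 33, which charge tRNAs for translation, 18 were higher and 0 lower, with TrpRS at 0.55 and LysRS at 0.56. Their median by pair was 0.75 at ZT08 and −0.01 at ZT12, 2 of 27 were higher in the 3 pairs, and 0 of 28 were higher with the germline covariate, where the median was 0.06.

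The proteins of the cytosolic ribosome itself lay below the median of all genes, though not with the germline covariate. With that covariate their median was 0.0066, against −0.0037 over all genes. In the pairs ZT06, ZT10 and ZT12 it was −0.02, against 0.04 over all genes. Of 85 genes tested of 91, 3 were higher and 2 lower at an unadjusted p under 0.05 in all 6 pairs. The median there was −0.03, or −0.22 after rescaling, with 2 of 85 genes above 0. Of 28 DNA replication genes 13 passed the filter on low values, and of 19 germline markers 15 did. Several passed it only through their day 2 levels, so no median over them is given. PCNA, the sliding clamp of DNA polymerase, was at 37, 19.8, 10.3, 63.4, 6.98 and 3.15 TPM on day 2, against 4.06, 8.56, 1.77, 5.71, 1.74 and 1.20 TPM on day 1. CycB, a mitotic cyclin stored in oocytes, was likewise highest at ZT08 and lowest at ZT12 of day 2. It was at 160.3, 91.4, 27.0, 291, 34.8 and 0.79 TPM on day 2 and at 10.5, 42.2, 3.96, 28.2, 8.76 and 0.73 TPM on day 1. The oocyte determinant osk reached 485 TPM at ZT08 of day 2 and 43.3 TPM at ZT04 of day 1, its highest value of that day, and gnu, a regulator of the embryonic cell cycle, was listed at 0 at ZT12 on both days. RPA2, a subunit of the single-strand DNA binding complex, differed by 1.25. With the germline covariate the differences of PCNA and RPA2 were 0.91 and 0.53, against 1.96 and 1.25 without it.

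Genes of the secretory pathway were close to all genes in the 6 pairs together, but not with the germline covariate. With that covariate their median was 0.20, against −0.0037 over all genes. At an unadjusted p under 0.05, 5 of 32 were then higher and 0 lower, against 4.55% of all genes higher. In the pairs ZT06, ZT10 and ZT12 the median was 0.11, against 0.04 over all genes. In the 6 pairs, of 32 genes for endoplasmic reticulum chaperones and secretion, 10 were higher (31.25%, against 24.2% of all genes) and 0 lower at an unadjusted p under 0.05. The median was 0.20, against 0.18 over all genes, and 0.01 after rescaling, and 2 were higher in the 3 pairs with the least germline RNA on day 2. Calr, a calcium-binding chaperone of the endoplasmic reticulum, was at 561, 469, 422, 427, 589 and 432 TPM on day 2 and at 348, 324, 334, 338, 387 and 379 TPM on day 1. Its groups did not overlap, and the difference was 0.45 (SE 0.09). CaBP1, a protein disulfide isomerase, averaged 89.5 ± 9.65 TPM on day 2 and 68.4 ± 5.72 TPM on day 1. On days 4-5 at 18°C Calr had a median of 536 TPM at ZT02 to ZT12, above its highest day 1 value.

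**Figure D3:**
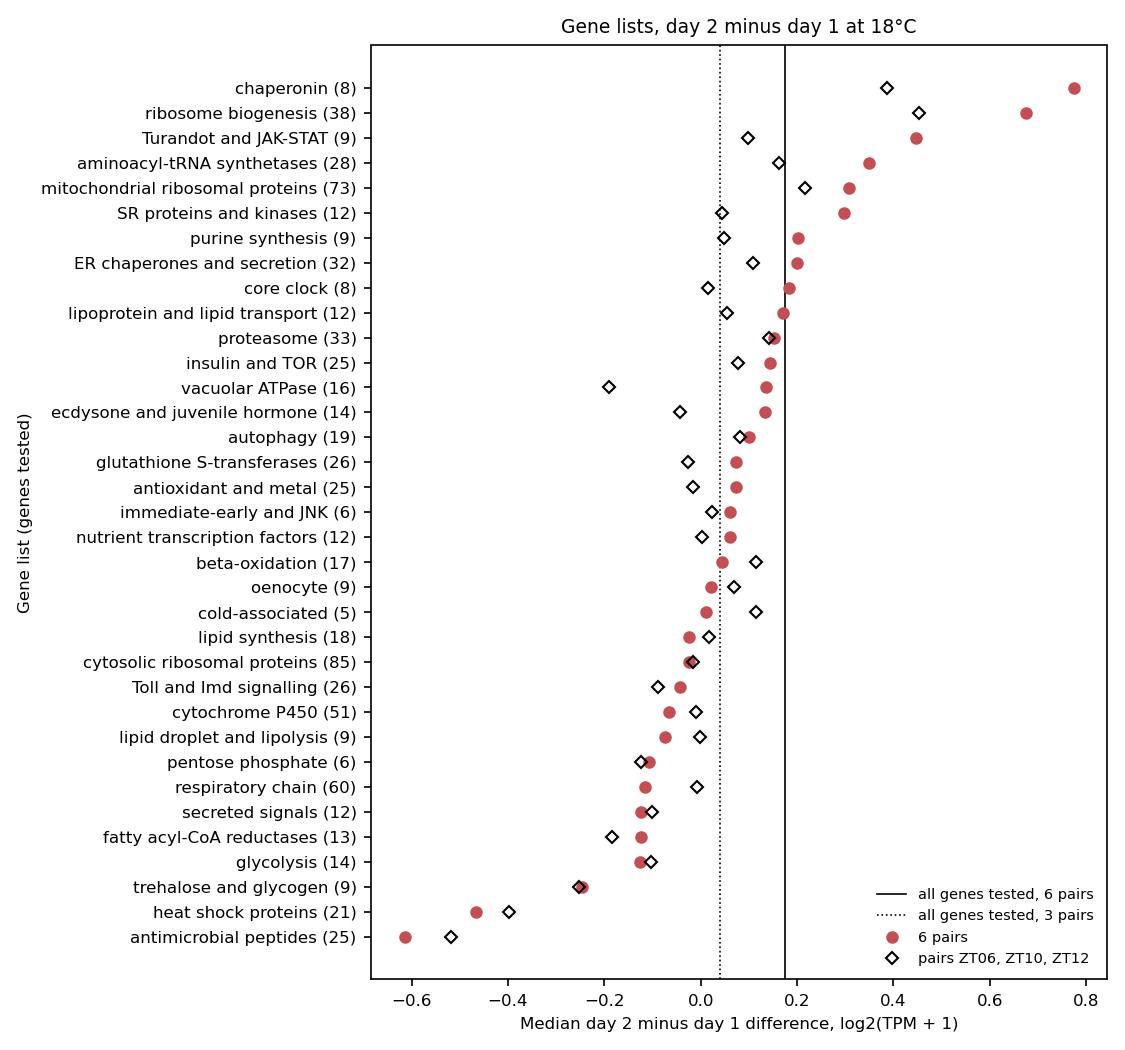
Median day 2 minus day 1 difference on the log2(TPM + 1) scale of gene lists with at least 5 genes tested and most of their genes past the filter, over all 6 pairs (red) and over the pairs ZT06, ZT10 and ZT12 (open diamonds), with the number of genes in parentheses. Vertical lines mark the median of all genes tested, 0.18 for 6 pairs (solid) and 0.04 for 3 pairs (dotted). Ribosome biogenesis and chaperonin lie to the right of both lines, and antimicrobial peptides and heat shock proteins to the left.

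Heat shock proteins and their cognates, chaperones that assist folding, went both ways. Of 26 genes 21 were tested, of which 5 were higher and 7 lower at an unadjusted p under 0.05. The 7 include Hsp70Ab, Hsp70Bb, Hsp70Bbb and Hsp70Bc, nearly identical copies that are not separate results. Hsc70-4, the major cytosolic Hsp70 cognate, was at 2274, 2134, 2194, 2675, 2533 and 2109 TPM on day 2, against 1633, 1509.5, 1501, 1859, 1962 and 2018 TPM on day 1, without overlap (difference 0.41, SE 0.08). The mitochondrial chaperonin Hsp60A was between 193 and 308 TPM on day 2 and between 113 and 163 TPM on day 1. It had stood at 230.2 TPM at the time of the shift and between 211 and 290 TPM in the 5 libraries of days 1-2 at 25°C, above every day 1 value. Droj2, a DnaJ-type co-chaperone, averaged 472 ± 39.1 TPM on day 2 and 355 ± 78.6 TPM on day 1.

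Among the genes lower on day 2, Hsp70Ab, Hsp68 and DnaJ-1 were chosen after their values were seen. Hsp70Ab, an inducible cytosolic chaperone, was at 3.07, 19.1, 328, 2.04, 8.26 and 742 TPM on day 2, against 837, 457, 262, 310.3, 1417 and 432 TPM on day 1. At ZT02, ZT04, ZT08 and ZT10 of day 2 it was below every day 1 value, whereas at ZT06 and ZT12 it was above its day 1 pair. The difference was −4.17 (SE 1.20, limma adjusted p = 0.087). Its copies are nearly identical, so reads may be split among them, but the sum over 6 Hsp70 genes showed the same picture, at 5.33, 23.5, 539, 3.36, 11.9 and 938 TPM on day 2 and 1099, 488, 346, 372, 2265 and 569 TPM on day 1. That sum was 724 TPM at the time of the shift, between 939.9 and 4541 TPM from 14 to 22 h, and between 58.7 and 305 TPM in the 5 libraries of days 1-2 at 25°C. On days 4-5 its median at ZT02 to ZT12 was 10.9 TPM at 18°C and 7.86 TPM at 25°C, though single libraries reached 904 and 1600.2 TPM. Hsp68, another inducible member, was between 5.36 and 199.8 TPM on day 2 and between 46.2 and 462 TPM on day 1. DnaJ-1, a co-chaperone of the family, averaged 199 ± 108 TPM on day 2 and 319 ± 121 TPM on day 1.

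Hsp83, the fly Hsp90, had its lowest levels early on the first day. It was at 1309, 1459, 1325, 1395, 1509.97 and 1631 TPM at ZT02 to ZT12 of day 2, against 602, 681, 1066, 1042, 1533 and 1356 TPM at the same times of day 1, with 934 TPM at the shift itself. The lowest values of the 18 libraries at 18°C of days 1-2 were those at 2 and 4 h. The slope over ZT was 0.03 log2 units per hour on day 2 and 0.13 on day 1. At 25°C Hsp83 was between 942 and 1084 TPM in the 5 libraries of days 1-2 and between 659 and 1188 TPM at ZT02 to ZT12 of days 4-5.

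**Figure D4:**
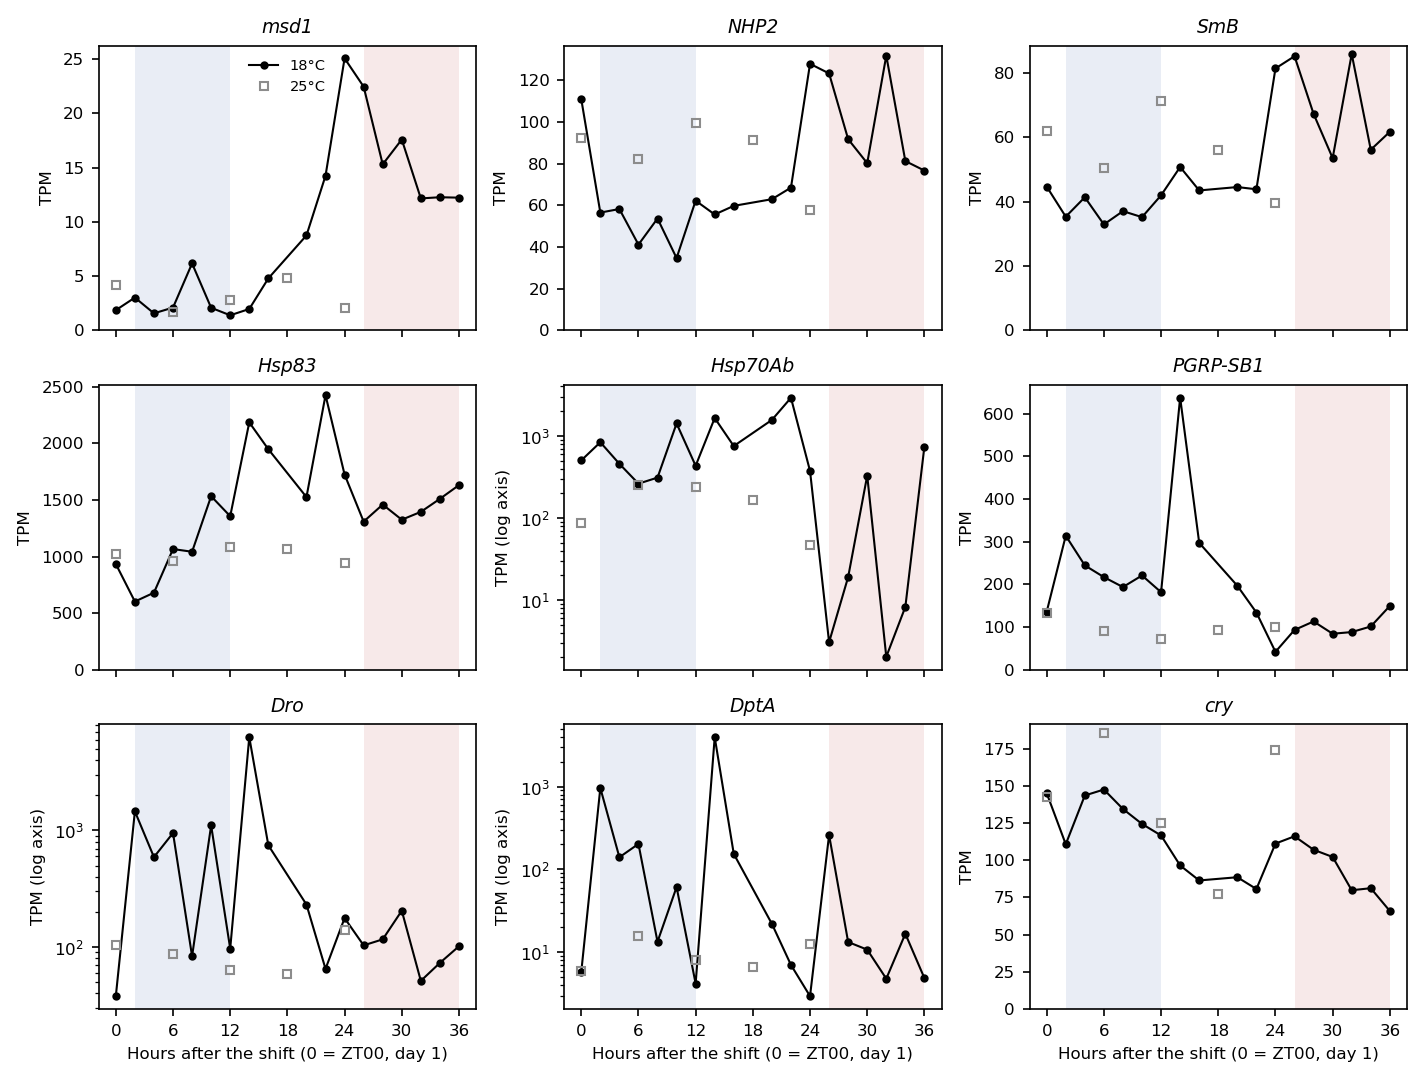
TPM of 9 genes by hours after the shift at 18°C (black line, 1 library per point) and at 25°C (open squares). Blue shading marks the day 1 window (2 to 12 h) and red shading the day 2 window (26 to 36 h), and the axes of Hsp70Ab, Dro and DptA are logarithmic. The antimicrobial peptide genes Dro and DptA peak at 14 h, at 6311 and 3940.03 TPM, and msd1 at 24 h, at 25.1 TPM.

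Antimicrobial peptide genes, the effectors by which the fat body answers infection, lay below all genes on day 2, with none past the adjusted threshold. Of 25 tested of 30, 0 were higher and 13 lower at an unadjusted p under 0.05, 1 had a difference above 0, and the median was −0.61, against 0.18 over all genes. The medians by pair were −1.33, −0.20, −0.33, −0.55, −0.64 and −0.67 at ZT02 to ZT12. In the pairs ZT06, ZT10 and ZT12, 16 of 25 were lower at an unadjusted p under 0.05, with a median of −0.52, against 4.82% of all genes. With the germline covariate 4 of 25 were lower, against 5.15% of all genes, with a median of −0.43. The rule for named genes gave 3 short secreted peptides of the Bomanin family. BomT2 averaged 397 ± 100.1 TPM on day 2 and 599 ± 100.5 TPM on day 1, and BomBc2 averaged 199 ± 48.7 TPM on day 2 and 304 ± 86.6 TPM on day 1. BomT3 was between 94.9 and 180.2 TPM on day 2 and between 182 and 285 TPM on day 1, without overlap (difference −0.72, SE 0.14).

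The peptides of the Imd pathway had larger swings, and those named here were chosen after their values were seen. Dro (drosocin) was at 103, 116, 205, 51.3, 73.1 and 102 TPM on day 2, against 1458, 591, 951, 83.4, 1105 and 96.8 TPM on day 1. The day 1 values at ZT02, ZT04, ZT06 and ZT10 stood above every value of day 2, and those at ZT08 and ZT12 lay inside the day 2 range. It was at 37.9 TPM at the time of the shift and at 6311 TPM at 14 h, and between 58.2 and 139.7 TPM in the 5 libraries of days 1-2 at 25°C. At ZT02 to ZT12 of days 4-5 it ranged from 46.5 to 635 TPM at 18°C and from 42.6 to 2310 TPM at 25°C, so values as high as those of day 1 also occurred at 25°C without a shift. DptA (diptericin A) was at 259.8, 13.3, 10.7, 4.79, 16.7 and 4.87 TPM on day 2 and at 960.1, 139.95, 203, 13.4, 61.1 and 4.18 TPM on day 1, with 5.77 TPM at the shift, 3940.03 TPM at 14 h and between 5.92 and 15.6 TPM at 25°C on days 1-2. On days 4-5 at 25°C DptA ranged from 1.80 to 3702 TPM at ZT02 to ZT12. The attacins AttB and AttC differed by −1.78 and −1.69, and both were highest of their day 1 window at ZT02. Mtk (metchnikowin) averaged 407 ± 283 TPM on day 2 and 832 ± 489 TPM on day 1. Of the 25 genes, 11 had their highest value among the 18 libraries at 18°C of days 1-2 at 2 h after the shift and 9 at 14 h. Each of these hours is a single pool of flies, and neither was sampled again.

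Genes of the pathways that switch these peptides on had a smaller median difference. Of 26 Toll and Imd genes, 0 were higher and 7 lower at an unadjusted p under 0.05, with a median of −0.04. The share lower was 26.92%, against 4.05% of all genes. The 3 with the smallest p were PGRP-SB1, described above, PGRP-LF and PGRP-LB. The 7 are not limited to genes that restrain the pathway. PGRP-LB, an amidase that damps Imd signalling, was between 23.4 and 46.5 TPM on day 2 and between 37.6 and 81.2 TPM on day 1, and was lower in all 6 pairs. PGRP-LF, a receptor that also restrains the pathway, averaged 17.6 ± 4.15 TPM on day 2 and 29.5 ± 8.25 TPM on day 1. It overlaps UGP on the opposite strand, which was lower too.

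Carbohydrate genes leaned lower on day 2. None of 9 trehalose and glycogen genes and none of 14 glycolysis genes had a difference above 0, and 2 of each were lower at an unadjusted p under 0.05, with medians of −0.25 and −0.13. UGP, which makes the UDP-glucose for glycogen and trehalose, was at 622, 444, 782, 516, 433 and 526 TPM on day 2, against 624, 1109, 918, 866, 768 and 630.5 TPM on day 1. It was lower in all 6 pairs (difference −0.56, SE 0.16), although the ranges overlapped. Tret1-1, a trehalose transporter, averaged 496 ± 84.5 TPM on day 2 and 650 ± 145 TPM on day 1. Pgi and Gapdh2, enzymes of glycolysis, were lower in 5 of 6 pairs, at −0.30 and −0.23, and higher at ZT02. The respiratory chain leaned lower too, with 0 of 60 genes higher and 13 lower at an unadjusted p under 0.05. ND-MLRQ, a complex I subunit, averaged 1139 ± 112 TPM on day 2 and 1324 ± 119 TPM on day 1, and ATPsynF and COX5B differed by −0.21 and −0.20. In the pairs ZT06, ZT10 and ZT12 that list's median was −0.01, with 0 genes lower at an unadjusted p under 0.05.

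Among secreted signals of the fat body, Ilp6, an insulin-like peptide, was at 43.6, 54.8, 44.1, 47.5, 78.6 and 54.6 TPM on day 2 and at 25.1, 24.7, 45.5, 46.4, 40.4 and 30.4 TPM on day 1. It was higher on day 2 in 5 of 6 pairs, with ZT06 the exception (difference 0.61, SE 0.17). The genes sun and CCHa2, both of which encode factors that promote insulin release, differed by −0.31 and −0.30. For sun the values were between 534 and 705 TPM on day 2 and between 688 and 877 TPM on day 1. Of 25 insulin and TOR pathway genes, 4 were higher and 0 lower at an unadjusted p under 0.05, with a median of 0.14 that was −0.03 after rescaling. At that level 0 of 18 lipid synthesis genes, 0 of 9 lipid droplet and lipolysis genes and 0 of 17 beta-oxidation genes differed in either direction. Npc2a, a sterol transfer protein, differed by 0.54 and the fatty acid binding protein gene fabp by −0.17.

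Detoxification genes were mixed. Of 51 cytochrome P450 genes tested of 83, 4 were higher and 10 lower at an unadjusted p under 0.05, and 3 of those lower had groups that did not overlap. Cyp12e1 was between 9.19 and 15.4 TPM on day 2 and between 16.8 and 24.9 TPM on day 1, and Cyp4e1 between 21.7 and 34.0 TPM on day 2 and between 38.2 and 46.0 TPM on day 1. Cyp4aa1 averaged 49.1 ± 12.2 TPM on day 2 and 99.1 ± 31.9 TPM on day 1, and its difference of −0.98 was −1.34 in the pairs ZT06, ZT10 and ZT12. Of 13 UDP-glycosyltransferases tested of 35, which conjugate small lipophilic compounds to sugars, 1 was higher and 5 were lower. Ugt35B1 was between 2.55 and 15.1 TPM on day 2 and between 3.69 and 40.4 TPM on day 1, and Ugt317A1 ran the other way, between 14.5 and 22 TPM on day 2 and between 7.52 and 15.5 TPM on day 1. Among fatty acyl-CoA reductases, Sgp was between 1.03 and 5.44 TPM on day 2 and between 5.33 and 49.3 TPM on day 1, lower in all 6 pairs. Its day 1 values all lay above the filter of 5 TPM, whereas those of day 2 reached no more than 5.44 TPM. The separation of Sgp is to be read with that limit. CG17562 differed by −0.43. Jafrac1, a thioredoxin peroxidase, and Fer1HCH, the ferritin heavy chain, had differences of 0.35 and 0.32, and Fer1HCH had a median of 2461 TPM on days 4-5 at 18°C, against 1751 TPM at 25°C.

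The core clock was compared by pairing equal ZT, so that its daily change cancels in part. Of its 8 genes, 0 were higher and 1 lower at an unadjusted p under 0.05. That gene was cry, the blue-light photoreceptor of the clock, at 116, 107.1, 102, 79.9, 81.2 and 65.9 TPM on day 2 and at 111, 144, 148, 134, 124 and 117 TPM on day 1. It was lower in 5 of 6 pairs (difference −0.51, SE 0.12, limma adjusted p = 0.0653). The repressor gene tim was at 56.1, 56.0, 81.5, 81.7, 96.9 and 49.5 TPM on day 2 and at 39.2, 52.8, 51.7, 64.5, 87.4 and 79.7 TPM on day 1. From ZT02 to ZT10 it was above its day 1 value and at ZT12 below it, and per and vri showed the same order of days. Their differences were 0.17 for tim, 0.26 for per and 0.40 for vri, none with an unadjusted p under 0.05. Without the ZT12 pair these were 0.34, 0.46 and 0.61. In that setting, where 786 genes passed the adjusted threshold, vri passed it too. The activators Clk and cyc differed by −0.06 and 0.21, and Pdp1 and cwo by −0.03 and 0.19. The signs of per, tim, vri, Pdp1 and cwo flipped under at least 1 other setting.

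A separate test asked which genes ran differently over the hours of the 2 days. No gene had a day by ZT term with an adjusted p under 0.05 by limma (0 of 7403, 0%), and 217 (2.93%) had an unadjusted p under 0.05. The 5 with the smallest p were Hsp83, CG1628, CG5846, lectin-33A and GstD5. CG1628 was at 35.3, 34.7, 46.6, 40.2, 39.3 and 35.0 TPM on day 2 and at 14.3, 20.7, 33, 36.8, 34.9 and 50.5 TPM on day 1, a slope difference of −0.15 log2 units per hour (adjusted p = 0.864). The C-type lectin gene lectin-33A and the glutathione transferase gene GstD5 had day 1 slopes of 0.16 and 0.18 as well, and day 2 slopes of −0.02 and −0.12. CG5846 differed by 0.14 in slope, with the larger slope on day 2. On simulated data this test recovered 4% of slope differences of 0.1 and 51% of those of 0.2, so it could miss changes of this size.

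Settled days were used to gauge how far 2 days differ without a recent shift. At ZT06 to ZT12, day 5 minus day 4 gave 0 of 7401 genes at 18°C (0%) and 0 of 7410 at 25°C (0%) with an adjusted p under 0.05 by limma, and 301 (4.07%) and 800 (10.8%) with an unadjusted p under 0.05. In the same 4 pairs, day 2 minus day 1 gave 0 of 7338 genes (0%) and 774 (10.5%). That share was close to the share of the settled days at 25°C, but the directions were opposite. Of the 774 genes, 585 were higher on day 2 and 189 lower. Of the 800 genes at 25°C, 160 were higher on day 5 and 640 lower. The difference of differences, day 2 minus day 1 less day 5 minus day 4 at 18°C, gave 0 of 7540 genes (0%) and 550 (7.29%). With days 4-5 at 25°C as the settled pair it gave 0 of 7594 genes and 1452, of which 1246 were higher and 206 lower. For msd1 the difference of differences at 18°C was 2.76 (SE 0.46, limma adjusted p = 0.339), with a day 5 minus day 4 difference of −0.75. For nudC it was 0.68 (SE 0.15), for SmB 0.72 (SE 0.18) and for PGRP-SB1 −1.16 (SE 0.45), none of which passed the adjusted threshold.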

How the data were processed

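Poly(A) RNA was sequenced from pooled fat bodies as non-stranded paired-end libraries. Per the study's methods and the labels, the authors trimmed reads, aligned them with STAR 2.7.10a and quantified genes with RSEM on BDGP6.32. The deposited table holds TPM for 23932 genes in 73 libraries. The study worked with reads from which duplicates had been removed, and whether this table is that version is not given in the sources used here. TPM keeps no depth, so read depth is unknown and no counting interval is given. Libraries were grouped by their labels.

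Genes with a median above 5 TPM in either group were tested with limma 3.58.1 (R 4.3.3) on log2(TPM + 1), where a pseudocount of 1 understates changes of low genes, with day and ZT as terms, a variance trend and Benjamini-Hochberg adjustment at 0.05. The study does not describe a test of these 2 days, so ZT pairing was chosen here. Other models tested the day by ZT slope and the same day difference on days 4-5 (ZT06 to ZT12). Each was checked on simulated data. True changes of 1 on the log2 scale were recovered in 90% of cases for day 2 minus day 1. For the difference of differences the share was 53%. True slope differences of 0.1 and 0.2 log2 units per hour were recovered in 4% and 51% of cases. An absence of calls in these last 2 tests therefore does not show an absence of change. Nor does it for day 2 minus day 1, because changes smaller than 1 were not simulated and the simulated noise was drawn independently for each gene. Because each library is 1 pool, p-values of the paired fits measure how far the day difference varied between ZT pairs, variation between pools included.

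The members and gene lists were chosen with earlier results of these data known. Named genes were the 8 per direction with the smallest p among those of 1 direction in all 6 pairs, the 5 with the smallest slope p, the core clock, and up to 3 per list with the smallest p. The rule gave 156 genes, of which 78 are named, and 8 more were named after their values were seen. Positions and overlaps come from the BDGP6.54 annotation, which held 23851 of the gene IDs. Alternatives were other pseudocounts, filters, scaling, weights, pairings, marker covariates and left-out pairs.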

Additional observations from a re-analysis of the deposited data

Results flagged for a closer look

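The screen took each named gene, and the germline, eggshell, gut and muscle marker sums, on each day. Among the 180 groups of 6 libraries screened, 8 held a library far from the other 5, and about 1 in 20 groups would be expected to by chance. All but 1 were in day 1 libraries. At ZT02 of day 1, NimB1 was at 30.8 TPM (the others between 15.9 and 18.9), cwo at 15.95 TPM (46.9 to 69.8), TrpRS at 19.2 TPM (13 to 13.6) and Pgi at 337.9 TPM (492 to 584). At ZT10 of day 1, Hpd was at 306.1 TPM (413 to 464) and DnaJ-1 at 559.2 TPM (219 to 302). At ZT12 of day 1, Jafrac1 was at 374.5 TPM (302 to 320). At ZT02 of day 2, DptA was at 259.8 TPM (4.79 to 16.7).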

How the results depend on the processing

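No gene passed the adjusted threshold for day 2 minus day 1 in the reported fit, and this count depended on the setting. It was 71 with a pseudocount of 0.5, 1 with a median above 20 TPM, 65 with rescaled TPM (39 higher, 26 lower), 7 without a variance trend, 766 with array weights, 249 with ZT as a linear term and 424 with all 18°C libraries in 1 fit. With no replicate block, that is without pairing by ZT, it was 271. Deviations of same-ZT libraries correlated between 0.053 and 0.217, and only ZT12 matched best with its own ZT. Leaving out 1 pair gave 0 to 786. Chosen after seeing the data, leaving out the ZT02, ZT04 and ZT08 pairs gave 4 and a germline covariate 7. The count stayed at 0 with a pseudocount of 5, no filter, the pairs ZT06 to ZT12 alone, and germline with eggshell, gut or muscle covariates. The cause was not tested. For the early minus settled difference, leaving out 1 pair gave 0 to 1.

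Of 82 named genes, 77 kept the sign of their difference throughout. The exceptions were clock genes. With the germline covariate, per was −0.14, tim −0.24, vri −0.027 and cwo −0.24, and with germline and eggshell, per was −0.17, tim −0.19 and cwo −0.12. With rescaled TPM tim was −0.013, and with the muscle covariate −0.028. Leaving out 1 pair gave −0.10 to 0.057 for Pdp1 and −0.0196 to 0.34 for cwo. Pdp1 was 0.0599 for the pairs ZT06 to ZT12 and 0.13 with the gut covariate. For cwo the value was −0.13 in the pairs ZT06, ZT10 and ZT12. The median over all genes was −0.0061 with rescaled TPM. The lack of libraries repeated at 1 hour and of 25°C libraries on day 2 limits every comparison.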
